A study of Mus musculus with 3 samples.

Results

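H3K36me3 peaks were examined where 2 protein-coding genes on opposite strands share the same stretch of the genome. A peak was a member when its midpoint lay inside the annotated bodies of at least 2 such genes, one on each strand, in the GENCODE M21 annotation of the mm10 mouse genome. The rule used positions only and no measured value. It took 2273 of 120910 peaks, against 2217 peaks in overlapping genes of 1 strand, 109635 in the body of 1 coding gene and 6785 in none. Of the members, 1152 lay in convergent pairs, whose overlap holds both 3′ ends, 130 in divergent pairs, whose overlap holds both starts, and 968 in nested pairs, in which one gene lies wholly inside the other. The last 23 lay in pairs of more than 1 class and are left out of the class summaries. Gene bodies were taken at their longest annotated extent, and with the span of basic protein-coding transcripts in its place the rule took 1227 peaks. Treg cells (CD3+CD4+Foxp3-YFP+) had been sorted from both spleen and large intestine (LI) of C57BL/6 mice that carry Foxp3-YFP, a reporter of the Treg lineage gene Foxp3 that also encodes Cre, and no gene was deleted in either group. The mice were unmanipulated, mice of the study were 6 to 12 weeks old as a rule with no separate age for these libraries, and cells of several females and males were pooled into 1 library per tissue. An input library was not analysed here.

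Setd2 is a histone methyltransferase, and H3K36me3 is its trimethyl mark on lysine 36 of histone H3. The enzyme travels with elongating RNA polymerase II. The mark is therefore known for lying over the bodies of transcribed genes, low at their starts and strong towards their 3′ ends. It carries no strand, so that where genes overlap on opposite strands a peak cannot be given to one partner or the other. Parts of a gene that no other coding gene covers were set beside the overlap. Their signal is that of whole peaks placed by midpoint, which can run into the overlap.

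Values are mean RPKM coverage over a peak, with each library scaled to the mean of both libraries' totals over all peaks. The ratio is the log2 of LI over spleen after 0.5 RPKM was added to each, so that positive values are higher in LI. With 1 library per tissue there was no replicate and no test. In place of a replicate error, an approximate 95% counting interval is given, for which each read was taken to cover 200 bp. It covers counting error only. At a depth of about 29600000 reads in spleen and 38100000 in LI, a median member held about 15.0 spleen and 20.7 LI reads. The median counting error of its ratio was 0.48, so that single narrow peaks tell little, and the members were summed over the overlap of a pair. All 8 Treg and T cell markers, Foxp3, Il2ra, Ctla4, Ikzf2, Cd4, Cd3e, Cd3g and Cd247, held peaks (2459 scaled RPKM in spleen and 1999 in LI, summed). The sum rested largely on Ikzf2 (1224 and 837) and Cd247 (582 and 488). Il2ra (251 and 238), Cd3e (52.7 and 39.4) and Cd3g (71.5 and 58.6) were also lower in LI. Foxp3 (135 and 154), Ctla4 (67.2 and 102) and Cd4 (75.0 and 81.9) were higher in LI.

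Convergent overlaps are bounded by the 3′ ends of both partners. The final 30 bases of both genes are shown for the convergent pair with the broadest member (Pcif1 and Zfp335), one that was higher in spleen (Evl and Degs2) and the one that holds Foxp3. Each is read 5′ to 3′ on the strand of its gene, with the polyadenylation hexamers AATAAA and ATTAAA in capitals.
Pcif1: cgagatgtcAATAAAgagttgttatacaaa
Zfp335: AATAAAgggaccagagtccagcccttgcaa
Evl: cacacaatAATAAActgttcactgtccaaa
Degs2: cttagaaggaatttagagatatagattgtt
Foxp3: gagcataaagtccctgtgtgatcaccccta
Ccdc22: atcccaAATAAAagagaagttcttctgtgg
They end at chr2:164894425-164894454 on the plus strand for Pcif1, chr2:164891882-164891911 on the minus strand for Zfp335, chr12:108688487-108688516 (plus) for Evl, chr12:108678711-108678740 (minus) for Degs2, chrX:7595216-7595245 (plus) for Foxp3 and chrX:7593809-7593838 (minus) for Ccdc22. Of these 6 ends, those of Degs2 and Foxp3 held neither hexamer. One of the hexamers stood in the last 30 bases of 59.3% of the 1762 genes in convergent pairs, 58.0% of the 665 genes whose convergent overlap held a member, and 62.0% of all 21938 coding genes. Both hexamers were searched on the gene's own strand only.

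For 5 pairs described further on, 4 that were higher in LI and 1 that was higher in spleen over many members, the middle 200 bases of a member are shown, read on the plus strand, with CG dinucleotides in capitals. In each pair the peak with the most signal (signal times width) was taken whose middle 200 bases met no annotated exon, so that all 5 windows lie in introns of both partners.
Oprm1/Ipcef1: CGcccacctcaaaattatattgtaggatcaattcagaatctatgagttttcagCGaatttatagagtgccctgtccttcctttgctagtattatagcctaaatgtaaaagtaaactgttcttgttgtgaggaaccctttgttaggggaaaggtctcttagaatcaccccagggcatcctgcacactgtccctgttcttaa
Ccr9/Lztfl1: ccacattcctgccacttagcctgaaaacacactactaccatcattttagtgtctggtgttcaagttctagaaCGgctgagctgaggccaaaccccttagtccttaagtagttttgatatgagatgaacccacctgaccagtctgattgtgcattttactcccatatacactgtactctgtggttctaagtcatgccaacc
Tnfrsf9/Camta1: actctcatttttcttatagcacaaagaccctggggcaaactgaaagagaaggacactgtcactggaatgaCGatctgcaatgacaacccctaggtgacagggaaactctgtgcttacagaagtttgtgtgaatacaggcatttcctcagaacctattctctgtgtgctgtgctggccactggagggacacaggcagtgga
Fam83g/Slc5a10: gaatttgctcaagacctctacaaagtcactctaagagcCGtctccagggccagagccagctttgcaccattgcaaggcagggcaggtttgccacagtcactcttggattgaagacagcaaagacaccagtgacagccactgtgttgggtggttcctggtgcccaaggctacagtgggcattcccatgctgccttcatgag
Angptl2/Ralgps1: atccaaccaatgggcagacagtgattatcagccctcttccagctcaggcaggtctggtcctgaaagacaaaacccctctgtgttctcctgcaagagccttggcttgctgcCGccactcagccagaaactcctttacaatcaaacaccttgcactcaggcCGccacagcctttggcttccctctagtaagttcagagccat
The windows are chr10:6899229-6899428, chr9:123708707-123708906, chr4:150933113-150933312, chr11:61702009-61702208 and chr2:33231867-33232066. The first belongs to a member that was lower in LI (18.96 scaled RPKM in spleen and 15.45 in LI) and has a GC content of 41.0%. The Fam83g/Slc5a10 window has 54.0% GC and belongs to a member of 6.07 RPKM in spleen and 21.4 in LI. The windows hold 1 or 2 CG each, and the median over the middle 200 bases was 2 CG for members and for all peaks.

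The overlap was densely marked in convergent pairs and nearly bare in divergent ones. Of 2048 opposite-strand pairs of coding genes, 599 held at least 1 member: 335 of 888 convergent pairs (37.7%), 61 of 597 divergent pairs (10.2%) and 203 of 563 nested pairs (36.1%). Peaks covered 36.6% of all bases in convergent overlaps, 9.03% in divergent overlaps and 13.8% in nested overlaps. Overlaps differed in length as well, with medians of 1154 bp, 474 bp and 5250 bp, and a short overlap has less room for a midpoint. The covered share does not depend on midpoints, and was therefore compared within pairs with both partners marked. A partner was called marked when it held a peak with its midpoint outside the overlap and in no other coding gene. Such a peak can run into the overlap.

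In the 484 convergent pairs with both partners marked, a median of 90.4% of the overlap lay inside peaks, against a median of 40.6% of the partners' parts outside it. The overlap was the most covered of the 3 parts in 346 of these pairs, was covered to its last base in 186 and held no covered base in 55. In the 271 divergent pairs with both partners marked, the medians were 0% inside and 42.8% outside. A covered base was found in 56 of these overlaps (20.7%), against 429 convergent ones (88.6%). Members lay in only 36 of these divergent overlaps and 209 of the convergent ones. The others with a covered base were reached only by peaks with their midpoint elsewhere. Such peaks can be those that made a pair count as marked, so that the covered share is in part tied to the choice of pairs. Along the convergent overlap 68.4 to 71.4% of bases lay inside peaks in each of 10 equal parts of its length. The share was 73.9% in the adjoining 1 kb of the plus-strand gene and 74.1% in that of the minus-strand gene, and it was 32.2% and 30.7% at 20 kb, where genes of that reach remained in 242 and 228 pairs. Along the divergent overlap the share was 6.72 to 9.92%, with 5.34% and 7.64% in the adjoining 1 kb, and it was 39.9% on the minus-strand side and 37.8% on the plus-strand side at 6 kb. Marked coding genes that overlapped no other coding gene and had none within 1 kb served as a reference for single ends. In 5205 such genes 43.1% of the last 1 kb and 4.56% of the first 1 kb lay inside peaks, and 30.6% of the 1 kb past the 3′ end. These genes were picked for 1 marked gene and the pairs for a marked gene on each side, so that the levels are set side by side only. Only bases inside deposited peaks have values, so a bare overlap is one without a called peak.

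**Figure D1:**
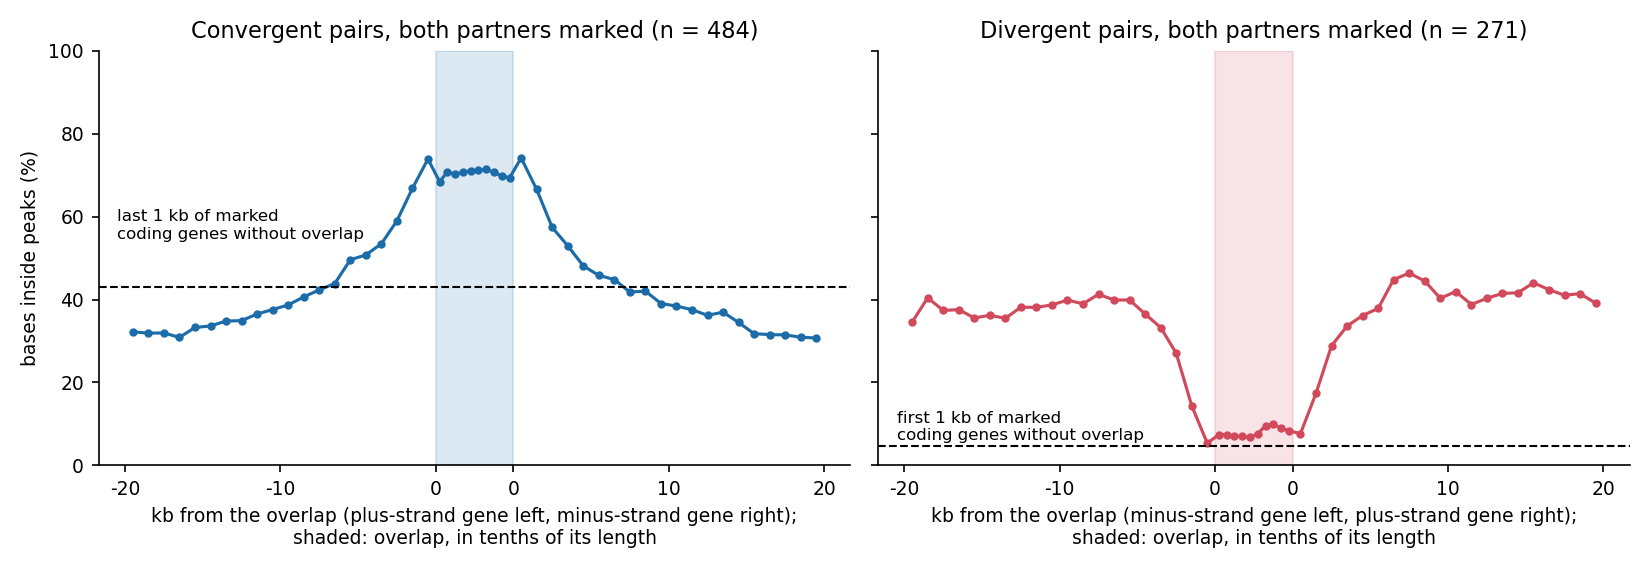
Share of bases inside H3K36me3 peaks (vertical axis, percent) against distance from the overlap in kb (horizontal axis), averaged over convergent (left, n = 484) and divergent pairs (right, n = 271) with both partners marked; the shaded part is the overlap in 10 equal parts (462 and 266 pairs of at least 10 bp), and a pair is left out of bins past the end of its gene. The convergent overlap stays between 68.4 and 71.4% and the divergent one between 6.72 and 9.92%, and the dashed lines mark 43.1% and 4.56% at the ends of marked genes without overlap.

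Where only 1 partner was marked outside, 94 of 229 convergent overlaps (41.0%) still held a member and 21.5% of their bases were covered, whereas 60.3% were covered with both marked and 11.95% with neither. The corresponding divergent shares were 10.1%, 17.01% and 0.062%. In nested pairs the host is the outer gene. With a marked host 162 of 295 nested overlaps (54.9%) held a member, and with an unmarked host 26 of 237 (10.97%), with 19.6% and 2.71% of bases covered. The pair with the most members was of this kind: Fam196b lies inside Dock2, a Rac activator of lymphocyte migration, and its overlap held 86 members (957 scaled RPKM in spleen and 855 in LI). It was chosen after its values were seen.

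Convergent members were broader than divergent ones. The median width was 541 bp (quartiles 308 and 1220) for convergent, 385 bp (245 and 707) for divergent and 467 bp (284 and 964) for nested members, against 500 bp for all members, 462 bp for peaks in 1 coding gene and 456 bp for all peaks. At least 1 kb was reached by 31.1% of convergent, 15.4% of divergent and 24.1% of nested members and by 23.3% of all peaks. More than 10 kb was reached by 22 members (0.968%), of which 17 were convergent, and by 0.501% of all peaks. Distance was taken to the nearest 3′ end among the genes that hold the midpoint, of which members have at least 2. Convergent overlaps also end at both 3′ ends by definition, so that a shorter distance was in part fixed by the rule. By this measure 17.2% of members lay under 1 kb away and 31.7% at 1 to 5 kb, against 3.13% and 12.9% of peaks in 1 coding gene. The classes differed here too: 8.25% of convergent but 46.2% of divergent members lay over 20 kb away. At equal distance the widths of all members and of peaks in 1 gene were alike. They were 545 bp for members and 518 bp for peaks in 1 gene under 1 kb, and 570 and 600 bp at 1 to 5 kb. They were 489 and 509 bp at 5 to 20 kb, and 395 and 415 bp farther away. The classes still differed at equal distance, but not in one order. Convergent and divergent medians were 670.5 and 387 bp at 1 to 5 kb, and 535 and 310.5 bp over 20 kb away. At 5 to 20 kb convergent members were instead the narrowest of the classes.

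Signal per base differed little between the classes. Median spleen signal was 10.9 scaled RPKM in convergent, 10.4 in divergent and 10.8 in nested members, and 10.52 in all peaks. Median LI signal was 10.9, 10.03 and 11.4, and 10.4 in all peaks. It followed width in members as elsewhere, from 8.72 RPKM in spleen for members under 300 bp to 18.9 RPKM for those of 3 kb or more, against 8.71 and 18.1 RPKM for peaks in 1 gene. The members held 1.97% of the summed spleen signal and 2.04% of the summed LI signal. A single member stood apart: a 348-bp peak at chr16:57391381-57391728, in the nested pair of Filip1l and Cmss1, had 144 RPKM in spleen and 183 RPKM in LI with 65.8% GC, and the next strongest, in the overlap of Eif2d and Rassf5, had 49.7 and 44.3 RPKM.

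**Figure D2:**
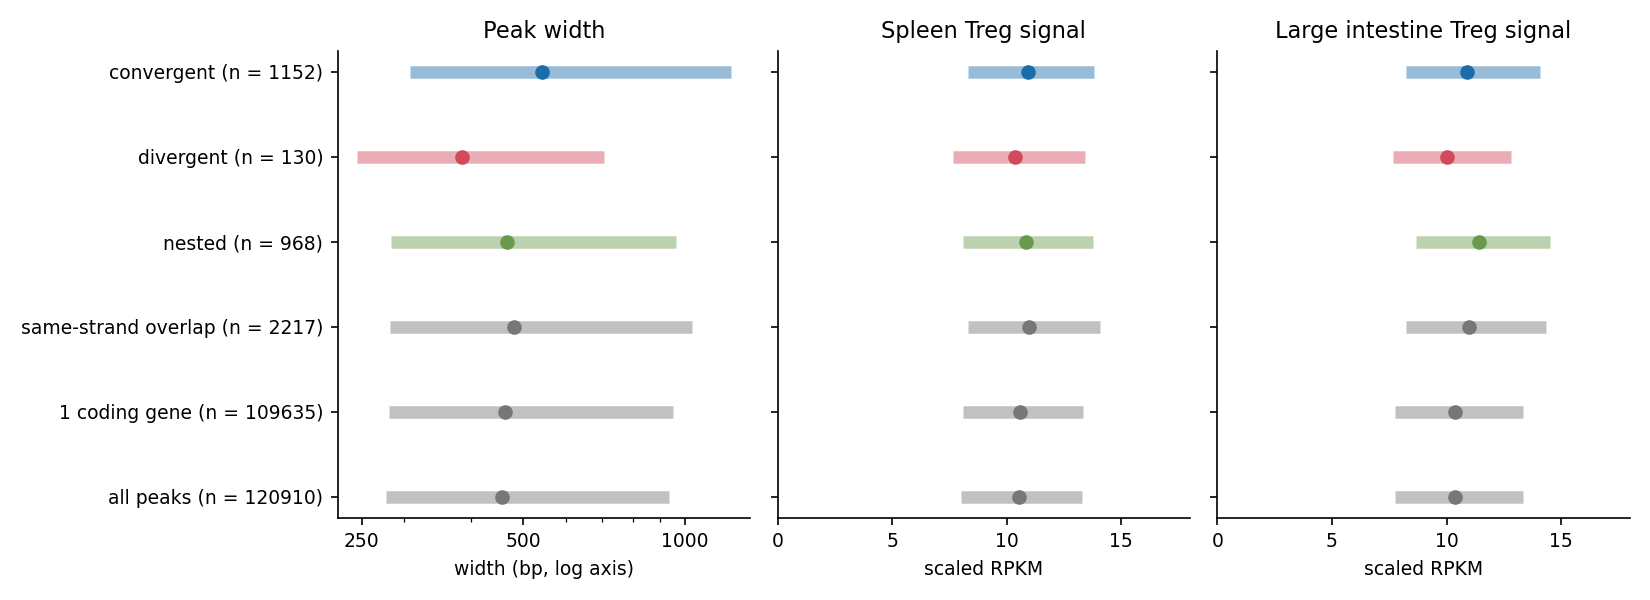
Width in bp (left, log axis) and spleen and LI signal in scaled RPKM (middle and right) of peaks by class; dots are medians and bars span the quartiles over peaks of 1 library, with n peaks beside each class. Convergent members have the highest median width of the 3 classes (541 bp) and divergent the lowest (385 bp), whereas the signal medians lie between 10.03 and 11.4 RPKM.

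The 3 broadest members show what a dense overlap looks like. The first, 26011 bp at chr11:34067882-34093892, covers the 3′ part of Lcp2, an adaptor of T cell receptor signalling that is nested in the gene model 4930469K13Rik, and had 30.4 RPKM in spleen and 28.1 RPKM in LI. Pcif1, which methylates the mRNA cap, and Zfp335, a zinc-finger factor of T cell maturation, meet tail to tail in a 2573-bp overlap that lay wholly inside 1 peak of 21051 bp, at chr2:164882608-164903658. It measured 36.8 RPKM in the spleen library and 42.3 RPKM in LI (log2 ratio 0.20, counting interval 0.13 to 0.28). The third spans 19396 bp at the 3′ end of Ankrd11, a chromatin regulator, with 33.4 and 37.0 RPKM. It counts as a member because of Gm20388, a plus-strand gene model whose annotated body runs over 26 such partners on chromosome 8 and gave 217 members. Only 1.04% of the 2198778 bases of Gm20388 outside other genes were covered, so its pairs are named with this limit.

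By position within transcripts, 1348 members (59.3%) had their midpoint in an intron of both partners, 719 (31.6%) in an exon of one and an intron of the other, and 206 (9.06%) in an exon of both. A 3′ untranslated region of at least 1 partner held 492 members (21.6%). In the convergent class these were 381 (33.1%), and 89 lay in the 3′ untranslated regions of both genes, with a median width of 775 bp. The 16 divergent members in an exon of both genes had a median GC content of 63.8%, against 49.1% over all divergent members.

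Between the tissues the members differed little in the median. The ratio varied widely over all peaks (SD 0.80, and 0.39 at 1 kb or more) and likewise over single members (0.74 and 0.37). Their median ratio was 0.03 (binomial 95% interval of the median −0.00 to 0.06), against −0.01 for all peaks and −0.02 for peaks in 1 gene, and 1181 of 2273 members (52.0%) were higher in LI. The median was 0.00 in convergent, −0.04 in divergent and 0.07 in nested members. GC content moved with the ratio: over 4 bins of equal peak number, from low to high GC, the members' median ratio was −0.24, −0.06, 0.09 and 0.22, and that of all peaks −0.26, −0.06, 0.06 and 0.21. Nested members had a median GC of 48.3% and convergent members 45.7%. After the median of peaks of like GC was subtracted, the medians were 0.03 in convergent, −0.09 in divergent and −0.00 in nested members, which is another order of the classes. The part of GC content in the ratios was not tested.

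Among the 1280 members with at least 20 RPKM over both libraries, 55 (4.30%) were over 2-fold higher in LI, against 3.60% of all 61358 such peaks, and 26 (2.03%) were over 2-fold higher in spleen, against 2.95%. Both shares lay near those of all peaks. The whole counting interval lay past 2-fold higher in LI in 4 members, 3 in Fam83g/Slc5a10 and 1 in Gm20388/Snai3, and past 2-fold higher in spleen in none. Over all such peaks the shares were 0.178% and 0.0538%, and too few members were called to read a share from. Of the 573 tested members of at least 1 kb, 7 (1.22%) were over 2-fold higher in LI and 0 in spleen, against 1.31% and 0.538% of all such peaks.

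Summed over the overlap, 493 pairs reached 20 RPKM, and their median ratio was 0.05, with 0.05 in 292 convergent, −0.07 in 28 divergent and 0.08 in 173 nested pairs. LI was over 2-fold higher in 15 pairs (6 convergent and 9 nested) and spleen in 9 (4 convergent, 2 divergent and 3 nested). These are 3.04% and 1.83% of the pairs, against 3.22% and 1.83% of 9455 coding genes summed in the same way. Counting intervals lay wholly above 0 in 79 pairs and wholly below 0 in 39. They lay wholly past 2-fold in 3 pairs (0.609%), all higher in LI, against 0.973% of coding genes higher in LI and 0.317% higher in spleen.

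**Figure D3:**
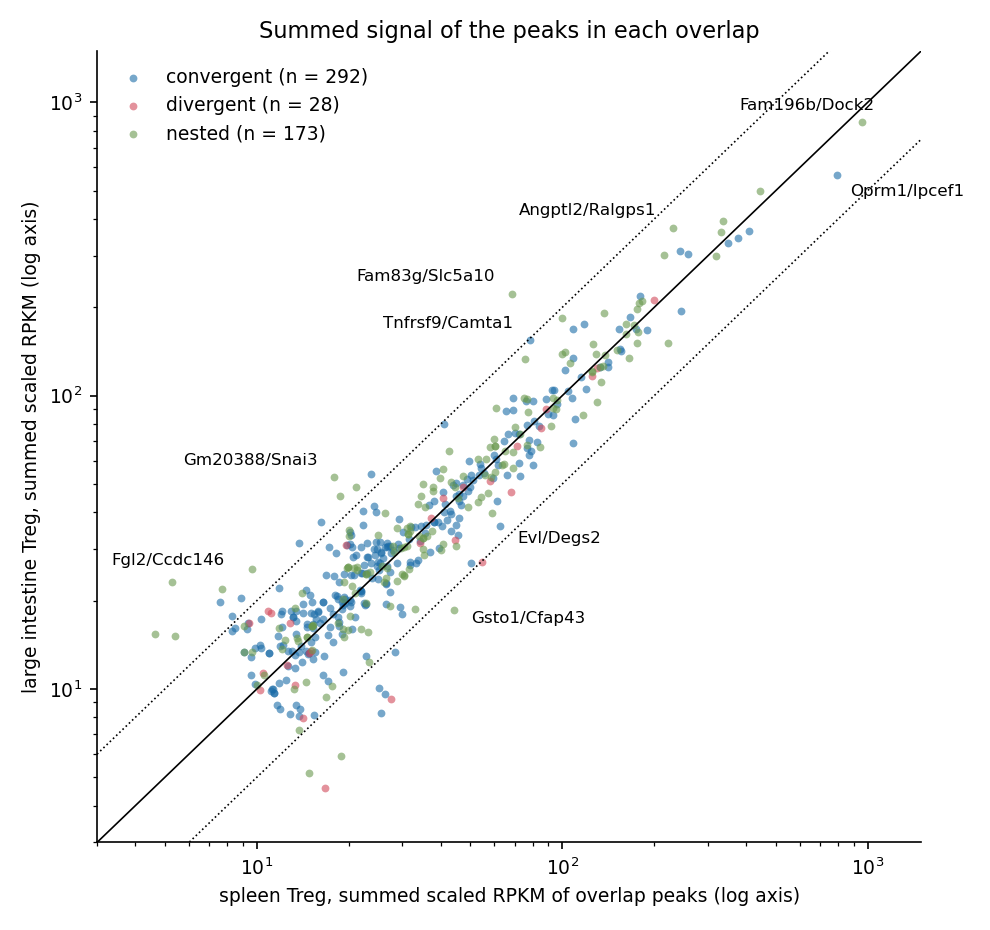
Summed scaled RPKM of the member peaks in each overlap, spleen (horizontal) against LI (vertical), both on log axes, one point per pair with at least 20 RPKM, coloured by class; the solid line is equality and dotted lines are 2-fold. Most of the 493 pairs lie between the dotted lines, with 15 above and 9 below them, and Fam83g/Slc5a10 stands out at 68.4 RPKM in spleen and 222 RPKM in LI.

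The clearest pair on the LI side was Fam83g, whose product binds casein kinase 1, nested in Slc5a10, a sugar transporter gene. All 14 members in the 25861-bp overlap (chr11:61684091-61709951) were higher in LI, with 2.32 to 8.27 RPKM in spleen and 10.2 to 22.7 RPKM in LI, so that the 2 libraries did not overlap. The sums were 68.4 and 222 RPKM (log2 ratio 1.69, 1.38 to 2.01). Slc5a10 outside the overlap held 1 peak, with 13.9 RPKM in spleen and 16.8 RPKM in LI. The following 2 pairs of the LI side had few reads. Fgl2, which encodes a fibrinogen-like protein that Treg cells secrete, is nested in Ccdc146 and had 2 members with sums of 5.27 and 23.2 RPKM (2.04, 1.34 to 2.74), a pair named after its values were seen. Snai3, a Snail family repressor gene inside Gm20388, had 3 members with sums of 17.96 and 52.6 RPKM (1.53, 1.04 to 2.01).

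Tnfrsf9, a costimulatory receptor gene of the tumour necrosis factor receptor family, converges with Camta1, a calmodulin-binding transcription activator. Its 10 members were all higher in LI and summed to 78.4 RPKM in spleen and 154 RPKM in LI (0.97, 0.72 to 1.22). The broadest, 5553 bp, had 16.97 and 27.08 RPKM. The overlap takes in nearly all of Tnfrsf9, and only 0.730% of the 857502 bases of Camta1 outside were covered (15 peaks, 0.21, −0.11 to 0.53). In the pair of Gpr55, a lipid receptor gene, and 4933407L21Rik, also named after its values were seen, 1 member had 7.60 and 19.8 RPKM (1.32, 0.98 to 1.66). Outside it Gpr55 had a ratio of 1.43 over 6 peaks and 4933407L21Rik one of 1.78 over 2 peaks, both also higher in LI.

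Markers of intestinal epithelium were higher in LI too. Of 6 such genes 3 held peaks, Epcam, Lgals4 and Vil1, with 56.0 RPKM in spleen and 92.4 RPKM in LI in all, whereas Krt8, Krt19 and Cdh1 held none. Of 6 B cell genes 3 held peaks (61.2 and 52.6 RPKM), and of 5 myeloid genes only Csf1r did (14.9 and 16.1 RPKM). Their part in the values of the pairs was not tested. In such pooled sorted cells, more cells with a mark and more mark per cell cannot be told apart.

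The longest of the overlaps named here as higher in spleen was that of Oprm1 and Ipcef1. Oprm1 encodes the mu-opioid receptor and Ipcef1 an adaptor of cytohesin exchange factors, and their annotated bodies share 152403 bp (chr10:6885796-7038198). The 65 members there summed to 795 RPKM in spleen and 566 RPKM in LI (log2 ratio −0.49, −0.60 to −0.38), and 8 of them were higher in LI. None of the 124034 bases that Oprm1 has to itself were covered, nor of the 14280 bases of Ipcef1. Evl, an actin regulator of the Ena/VASP family, converges with Degs2, a sphingolipid enzyme gene. The 2 broad members had 35.7 and 27.1 RPKM in spleen and 20.3 and 15.6 RPKM in LI (sum −0.80, −0.95 to −0.65), and Evl outside the overlap was lower in LI as well (−1.09, −1.28 to −0.91, 15 peaks). Fchsd2, an endocytic adaptor, and Atg16l2, an autophagy gene, had 9 members, 8 of them lower in LI (−0.64, −0.95 to −0.33). That sum counts narrow and broad members alike. Weighted by width, the means were nearer to each other, at 13.4 RPKM in spleen and 11.3 RPKM in LI, so that the sum rested in part on narrow peaks. Fchsd2 outside was at −0.47 (−0.74 to −0.20) and Atg16l2 at 0.13 (−0.10 to 0.35).

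Gsto1, a glutathione transferase gene inside the cilia gene Cfap43, had 3 members with 13.9, 15.6 and 14.8 RPKM in spleen and 9.44, 5.77 and 3.34 RPKM in LI (sum −1.23, −1.98 to −0.49). All were narrow, at most 376 bp. Of the divergent pairs, Pde6h and Arhgdib, a phosphodiesterase subunit gene of cones and a small GTPase regulator gene of blood cells, had 3 members. Of these the 2 broad ones differed little (29.4 and 26.8 RPKM, 22.9 and 19.1 RPKM) and a 222-bp one had 15.5 RPKM in spleen and 1.12 RPKM in LI, so that the sum (−0.52, −0.76 to −0.29) rested in part on the narrow peak.

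The 3 divergent pairs with the most signal times width had long overlaps, unlike most of their class. Dnaja3, a mitochondrial co-chaperone gene, and Coro7, a coronin gene, share 39789 bp, of which 83.4% lay inside 15 members (200 RPKM in spleen and 213 RPKM in LI). Pde6h and Arhgdib share 18068 bp and Cdk11b, a kinase gene, shares 20555 bp with Gm10563, with 74.4% and 81.5% covered. By the same measure the leading convergent pairs were Pcif1/Zfp335, Oprm1/Ipcef1 and the pair of Pdcd11, a ribosome biogenesis gene, with Calhm2, a channel gene, whose 26513-bp overlap was 89.8% covered (154 and 169 RPKM). Among nested pairs Lcp2 led by signal times width (9 members, 152 and 144 RPKM, −0.08, −0.23 to 0.07), followed by Ankrd11 (33 members, 331 and 362 RPKM) and Piezo1 (22 members, 337 and 394 RPKM) inside Gm20388.

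The overlap was next compared with what its partners showed outside it. In 163 convergent or divergent pairs all 3 parts reached 20 RPKM. Pearson's r across these pairs was 0.42 between the overlap's ratio and the mean of the partners' ratios, and 0.21 between the partners. The overlap and the mean outside lay on the same side of 0 in 108 of 163 pairs and differed by a median of 0.21. Per base the overlap was higher than both partners outside in 76 pairs in spleen and in 80 in LI. These values are of whole peaks placed by midpoint, so that a broad peak can hold bases of both parts. In 35 pairs the partners differed from each other beyond counting error. The overlap lay between them in 25, and nearer to the partner with more signal outside in 17. These r are descriptions across pairs of the same 2 libraries, and pairs are not replicates.

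Partners pointed in opposite directions beyond their counting intervals in 5 pairs, and the 4 farthest apart were as follows. Eif2d, a translation factor gene, was at 0.22 (0.04 to 0.41) and Rassf5, a Rap effector of lymphocyte adhesion, at −0.34 (−0.60 to −0.07), and their 5 members were all lower in LI (110 and 83.3 RPKM, −0.40, −0.60 to −0.21). The 2 broadest were at −0.17 (−0.37 to 0.04) and −0.05 (−0.38 to 0.28). Those of 401 and 503 bp were at −1.33 and −1.51, so that the sum rested in part on narrow peaks. Mllt10, a chromatin reader gene, was at −0.37 (−0.57 to −0.18) and Dnajc1, a chaperone gene of the endoplasmic reticulum, at 0.34 (0.07 to 0.60), with the overlap between them at −0.08 (−0.34 to 0.17). The lymphocyte surface antigen Cd52 was at −0.62 (−1.01 to −0.23) and Crybg2 at 0.84 (0.13 to 1.55), with the overlap at −0.32 (−1.02 to 0.37). D230025D16Rik was at −0.32 (−0.56 to −0.08) and B3gnt9, a glycosyltransferase gene, at 1.34 (0.19 to 2.50), with 1 member at 0.81 (−0.08 to 1.70).

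In nested pairs the overlap was compared with the host alone. The other classes were compared with the mean of both partners, so that the r of nested pairs cannot be ranked against theirs. Over 137 nested pairs the overlap and the host outside had an r of 0.16, lay on the same side of 0 in 83 and differed by a median of 0.29. Gm20388 was the host in 26, and without them r was also 0.16 (n = 111). Other hosts, such as Fgfr2, also stand for several pairs. The overlap differed from its host beyond counting error in 21 pairs, higher in 12 and lower in 9. The examples that follow were chosen after their values were seen. Tacc2, a centrosomal gene, lies wholly inside the annotated body of Fgfr2, a fibroblast growth factor receptor gene. Its 10 members were all higher in LI (75.5 RPKM in spleen and 134 RPKM in LI, 0.82, 0.45 to 1.19), whereas the 9 peaks of Fgfr2 outside were at −0.40 (−0.72 to −0.08). The annotated body of Fgfr2 is long, with 1384439 bp outside other genes of which 0.617% lay inside peaks. Angptl2, which encodes a secreted angiopoietin-like protein, lies inside Ralgps1, a Ral exchange factor gene, and 23 of its 26 members were higher in LI (231 and 373 RPKM, 0.69, 0.47 to 0.92). Ralgps1 outside had 254 and 223 RPKM (−0.18, −0.45 to 0.08).

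Both signs of the difference were found among further inner genes. Slc7a5, a subunit gene of the large neutral amino acid transporter, had 14 members inside Gm20388, of which 12 were lower in LI (222 and 152 RPKM, −0.54, −0.78 to −0.31). F2rl2, a thrombin receptor gene inside Iqgap2, had 3 members that were all higher in LI (18.7 and 45.7 RPKM, 1.27, 0.54 to 1.996), while the 69 peaks of Iqgap2 outside were level (−0.01, −0.14 to 0.11). Gpr183, the oxysterol receptor gene of lymphocyte positioning, was at 0.28 (0.02 to 0.55) inside Ubac2, which was at −0.08 (−0.23 to 0.08) outside. Sla, a Src-like adaptor gene of T cells, lies inside the thyroglobulin gene Tg, and its 8 members held 161 RPKM in spleen and 175 RPKM in LI, against 24.9 and 48.1 RPKM in the 5 peaks of Tg outside.

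**Figure D4:**
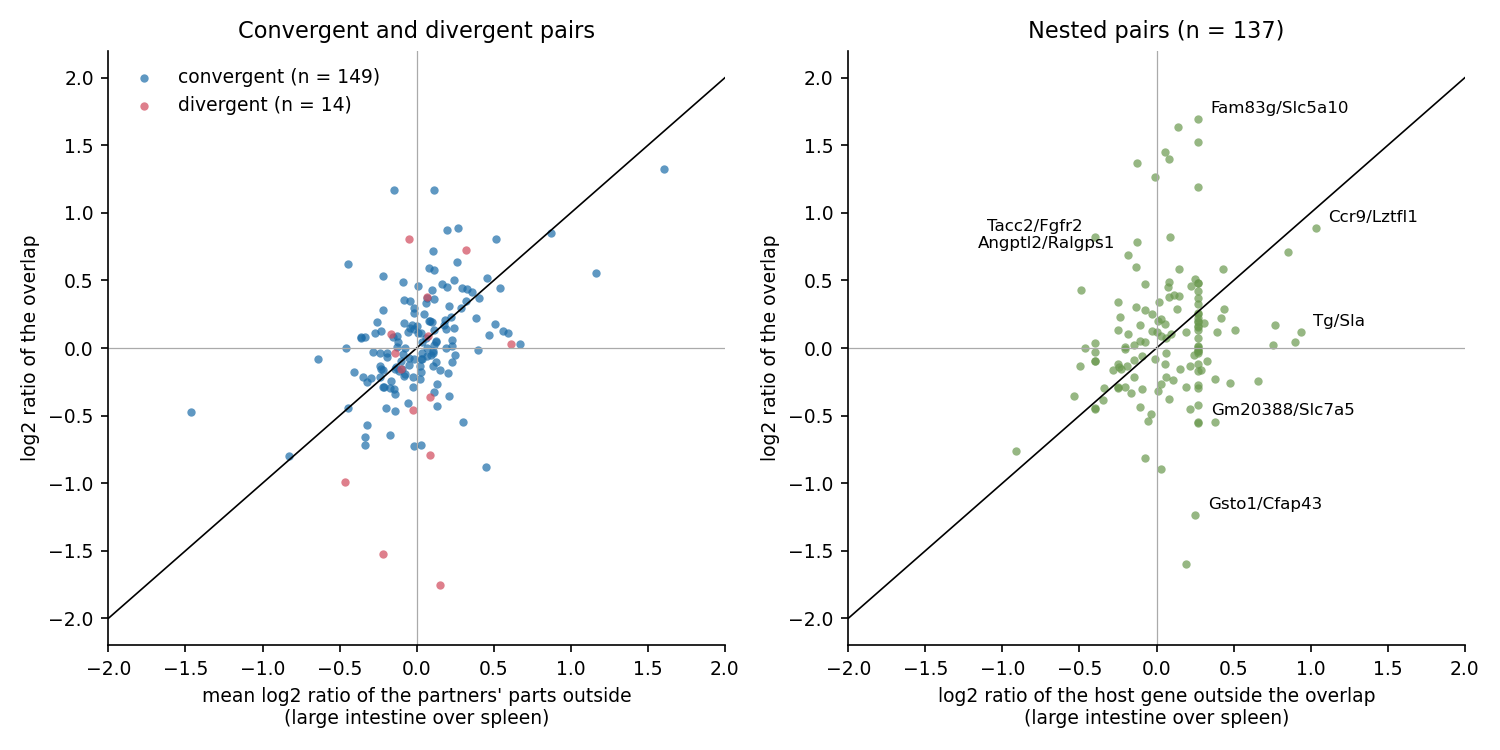
Log2 ratio of LI over spleen in the overlap (vertical axes) against that of the parts outside it (horizontal axes), one point per pair: left, 163 convergent or divergent pairs against the mean of both partners; right, 137 nested pairs against the host. The points on the left have r = 0.42 and those on the right r = 0.16, which are not ranked because the horizontal measures differ. The column of nested points at 0.27 is the 26 pairs inside Gm20388.

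Of 122 T cell genes in a list drawn up for this work, 18 pairs held at least 1, and 10 of these pairs had a member. In Foxp3 itself, which converges with the trafficking gene Ccdc22 over 1437 bp (chrX:7593809-7595245), the overlap held 1 member of 1076 bp with 8.30 RPKM in spleen and 11.4 RPKM in LI, under the 20 RPKM needed for a ratio. Foxp3 outside the overlap had 126 and 142 RPKM over 8 peaks (0.17, −0.03 to 0.38) and Ccdc22 had 42.6 and 57.4 RPKM over 5 peaks (0.43, −0.03 to 0.88). The mark around the 3′ end of Foxp3 was thus present in both tissues and cannot be given to one of the genes.

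Among receptor genes the overlap values differed in size and precision. Ccr9, the receptor of the intestinal chemokine Ccl25, has an annotated body that takes in Lztfl1, a cilia trafficking gene, and 15 of the 16 members there were higher in LI (99.6 and 184 RPKM, 0.89, 0.59 to 1.18). Ccr9 outside had 58.8 and 121 RPKM (1.04, 0.57 to 1.497), also higher in LI. Itgae, the αE integrin subunit known as CD103, holds the mitotic kinase gene Haspin, whose 3 members had 20.1 RPKM in spleen and 33.1 RPKM in LI (0.71, −0.00 to 1.42), and Itgae outside had 234 and 424 RPKM over 30 peaks (0.85, 0.67 to 1.04). Here inner gene and host were alike. Cxcr6, a chemokine receptor gene of tissue-resident T cells inside the vesicle transport gene Fyco1, had 3 members, each higher in LI (34.5 and 45.5 RPKM, 0.39, −0.08 to 0.86), and its interval reached 0.

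Of the genes of T cell receptor signalling, Cd247 was lower in LI in its overlap and outside, and Plcg1 only outside. Lcp2, described above, was level (−0.08, −0.23 to 0.07). Cd247, the zeta chain of the receptor, converges with Pou2f1, an octamer-binding factor gene. Of the 7 members 5 were lower in LI (80.1 and 57.9 RPKM, −0.46, −0.89 to −0.04). All were narrow, at most 858 bp. The 2 broadest were at −0.22 (−0.85 to 0.42) and −0.47 (−1.14 to 0.20), so that the sum rested in part on still narrower peaks. Cd247 outside was lower in LI as well (502 and 430 RPKM, −0.22, −0.38 to −0.06). The phospholipase gene Plcg1 and Zhx3 had 3 members with 44.9 and 45.4 RPKM (0.01, −0.31 to 0.34), while Plcg1 outside had 147 and 93.2 RPKM (−0.65, −1.02 to −0.28). In Mtor, the growth-regulating kinase gene that holds Angptl7, the 3 members were at 0.39 (0.04 to 0.74) and the 49 peaks outside at 0.14 (0.05 to 0.24). The integrin gene Itga4, which converges with Cerkl, and Gata3, the lineage factor gene that holds 4930412O13Rik, had 1 member each, both under 20 RPKM (8.25 and 8.97 RPKM, and 1.19 and 8.86 RPKM). Itga4 outside held 486 RPKM in spleen and 415 RPKM in LI over 39 peaks (−0.23, −0.35 to −0.10), lower in LI. Gata3 outside held 161 and 181 RPKM (0.17, −0.02 to 0.36). The 8 T cell pairs without a member were Stat6/Nab2, Stat5a/Stat3, Gm37419/Bcl6, Cpox/Gpr15, Nfkb2/Psd, Raver2/Jak1, Ccr9/Slc6a20a and Foxp3/Ppp1r3f.

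**Figure D5:**
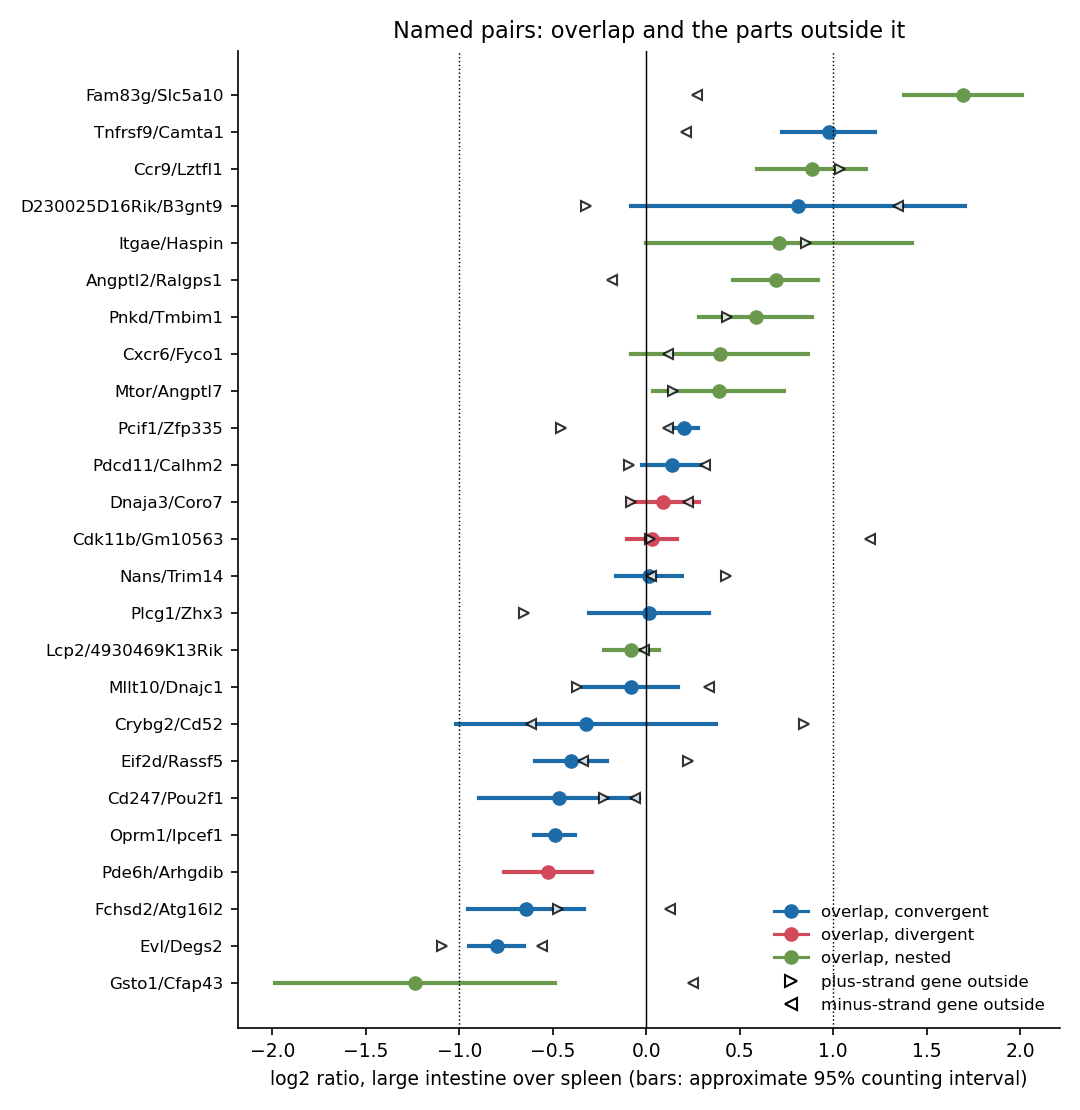
Log2 ratio of LI over spleen (horizontal axis) of the pairs chosen by the naming rule with at least 20 RPKM, those of Gm20388 and those named after their values were seen left out; dots are the summed overlap, coloured by class, with bars for its approximate 95% counting interval, open triangles are the partners' parts outside it, and dotted lines are 2-fold. Of the pairs drawn, Fam83g/Slc5a10 is farthest to the right (1.69) and Gsto1/Cfap43 farthest to the left (−1.23).

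Genes that the study had listed as signatures of colonic and of splenic Treg cells, from published mRNA microarray data, were last compared. For these lists the study had already reported a positive correlation between mRNA and H3K36me3 differences of the tissues. Its H3K36me3 values came from these same 2 libraries, so that the values of the pairs are not independent of that result. A pair was counted when either partner was listed, although its peaks cannot be given to that partner. Of 21 tested pairs with a colonic signature gene 16 were higher in LI, with a median ratio of 0.59 (range −0.72 to 2.04), and 3 were over 2-fold higher. Of 22 tested pairs with a splenic signature gene 8 were higher in LI, with a median of −0.13 (−1.43 to 0.53), and 1 was over 2-fold higher in spleen. Of the 452 tested pairs with neither, 254 were higher in LI, with a median of 0.05, and 12 were over 2-fold higher in LI and 8 in spleen. The colonic pairs with the most signal times width were Tnfrsf9/Camta1, Angptl2/Ralgps1 and Pnkd/Tmbim1, the last with 6 of 6 members higher in LI (60.5 and 91.1 RPKM, 0.59, 0.28 to 0.89). Those of the splenic list were Oprm1/Ipcef1, Nans/Trim14 and Evl/Degs2. Nans, a sialic acid synthase gene, and Trim14, an antiviral signalling gene, were level (115 and 116 RPKM, 0.02, −0.16 to 0.19).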

How the data were processed

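H3K36me3 ChIP-seq was analysed from 1 spleen and 1 LI library of sorted Treg cells. The authors aligned 75-nt reads to mm10 (Bowtie2 per the labels), called peaks per tissue with MACS2 (p 0.01) and merged them with bedtools. The deposited values are mean RPKM of bamCoverage tracks over each merged peak, although the table is labelled as raw counts. Tool versions are not given in the sources used here. The value times the width was a whole multiple of 1 step (tolerance 0.05) in 100% of 478 spleen and 480 LI peaks on bin edges, which gave the depths. Reads per peak were not recovered, since the read extension is not stated, and no count test was run.

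Peaks were placed by midpoint in GENCODE M21 gene bodies of protein-coding genes. Sequences were read from the GRCm38 assembly (the build of mm10) of RefSeq. Scaling used each library's total over all peaks. Calls needed 20 RPKM over both libraries and a 2-fold difference. For covered shares, parts outside an overlap exclude bases of any other coding gene, and a partner with under 1000 such bases was left out of the marked classes. Signals and ratios instead use whole peaks, placed in the overlap or outside it by midpoint. Counting intervals assume that 1 read covers 200 bp. Scripts were tested on simulated data and ran in Python 3.11.15, numpy 2.4.6, pandas 2.3.3, scipy 1.17.1 and matplotlib 3.10.9.

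Members and lists were chosen with earlier results of these data known. Pairs were named as the 3 with the most signal times width per class, the 4 in each direction with the counting bound farthest from 0 at 40 RPKM or more, those with a listed T cell gene, up to 4 with partners in opposite directions, the 3 broadest members, and the 3 strongest per signature list. Alternatives were the gene models, any-base overlap, no scaling, GC subtraction, filters, pseudocounts and peak length. One marker gene is not reported here.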

Additional observations from a re-analysis of the deposited data

How the results depend on the processing

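Each tissue had 1 library, so that no result has a replicate error, and no paired analysis was possible because there was 1 library per group. Of 138 alternatives 98 stayed within the set limits and 40 moved. Class medians of the ratio lay near 0 and some changed sign: the divergent median was 0.077 with any-base overlap and 0.0068 unscaled, and the convergent median −0.028 with basic-transcript spans, −0.0064 with at least 50% of bases and −0.0084 without clone-type symbols. The number of members rests on the gene models. With basic-transcript spans there were 1227 members (533 convergent, 60 divergent, 633 nested), the median LI signal was 11.4 RPKM, the median ratio 0.062 and that of nested members 0.15. Without clone-type symbols there were 612 nested members and the LI median was 10.8 RPKM. With any-base overlap the median width was 616 bp, the signals 11.6 RPKM in spleen and 11.9 RPKM in LI, and the convergent ratio 0.038. Peaks of at least 1 kb had medians of 14.6 and 15.1 RPKM. Unscaled RPKM gave ratios of 0.071 over all and 0.044 over convergent members. GC subtraction put the nested ratio at −0.0035, also a change of sign, and 40 members over 2-fold higher in spleen.

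Counts past 2-fold depended on depth. Members higher in LI and in spleen numbered 205 and 177 without a filter, 1 and 0 at 40 RPKM, 15 and 5 with a pseudocount of 5 RPKM, 7 and 0 at 1 kb or more, and 4 and 0 with the whole interval past 2-fold. Pairs numbered 39 and 30 without a filter, 9 in LI with a pseudocount of 5 RPKM, and 3 and 0 by the whole interval.

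The covered share was also recomputed with alternatives chosen after seeing the data. The median convergent overlap was covered to 94.4% with basic-transcript spans, to 83.0% in overlaps of at least 1 kb (35.4% outside) and to 100% in shorter ones (47.2% outside). Divergent overlaps stayed at 0% in each of these, with 35.8% outside at 1 kb or more.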
